A study of Acipenser ruthenus with 15 samples.

Results

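Along the axis of the sterlet egg, 64 of 42878 assembled transcripts were nearly absent from the animal side and held almost all of their level in the central and vegetal sections, with less than 50% of it in the section at the vegetal pole. They were chosen by their own levels. A transcript was taken when its mean level lay from 5 to below 600 CPM (its count scaled to a common library size, here with TMM, which equalizes the bulk of transcripts between libraries), when animal sections A and B together held at most 5% of the sum of its 5 section means, and when the vegetal pole section E held less than 50% of it. The samples were eggs of Acipenser ruthenus, a small sturgeon, labelled as oocytes of stage 1. There were 3 eggs, numbered 10, 18 and 20, with no treatment or mutation given, and each was cut on a cryostat into 5 segments from A at the animal pole to E at the vegetal pole, with 1 library of ribosome-depleted RNA per segment. Whether 1 female or several gave the eggs was not stated. The main p-values set a difference between sections against the spread over all 5 sections, with each egg's own level removed in the fit. That spread was estimated partly from the other tested transcripts, and it covers these 3 eggs alone.

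An egg of this kind is polarized: the nucleus lies near the animal pole and the yolk mass fills the vegetal side. In frog eggs, which divide completely as sturgeon eggs do, some maternal RNAs are carried to the vegetal cortex and anchored there during oogenesis. Those RNAs are known for germ plasm, the material inherited by future germ cells, and for factors that direct endoderm and mesoderm. The files list the sterlet transcripts by assembly ID, of which 0 matched the table of annotated sterlet genes, so no gene name, sequence or function is given to any of the 64, and lists of germ plasm or vegetal determinant genes could not be applied. Markers of follicle cells, the layer around an oocyte, could not be checked for the same reason. Every level below is relative to the other RNA of its library and is not an amount of RNA per section.

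Depth ran from 4347026 counts in section C of egg 20 to 14500611 in section D of egg 18. The low-count filter kept 29102 transcripts for testing, all 64 among them.

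The transcripts spanned a wide range of abundance. Their mean level over the 15 libraries had a median of 21.2 CPM and ran from 5.16 to 495 CPM. Of the 64, 17 stood below 10 CPM, 31 from 10 to below 50, 9 from 50 to below 100 and 7 at 100 CPM or more. The 2 most abundant made up 29.5% of the summed level of all 64, and the 10 most abundant 61.6%. Assembly IDs placed the 64 in 63 Trinity genes, the groups into which the assembler sorts transcripts that share sequence. In 57 cases (89.1%) the transcript was the only one listed for its gene, against 94.9% of transcripts from 5 to below 600 CPM and 95.2% of all tested.

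The thresholds cut through a continuous range. The largest share of A plus B inside was 4.89%, and the smallest outside it among transcripts that met the other criteria was 5.09%. For section E the nearest values were 49.8% inside and 50.7% outside. The lowest mean level inside was 5.16 CPM and the nearest below it 4.99 CPM. A further 345 of the listed transcripts met both share criteria below 5 CPM, and 0 did at 600 CPM or more. The 345 were counted without the low-count filter, so some may meet the criteria on few counts.

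By these criteria the profile was a steep rise with a shoulder, and less flat than a plateau. Going from A to E, the median shares of the summed section means were 0.859%, 2.53%, 18.5%, 35.1% and 43.2%. Section A held 0 to 2.09% of a transcript's level and section B 0.270 to 4.37%. Section C held 10.8 to 30.04%, section D 29.1 to 41.5% and section E 30.4 to 49.8%. In 7 transcripts section C held 25% or more, and in 11 it held less than 15%. These shares chose the members and are a description.

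**Figure D1:**
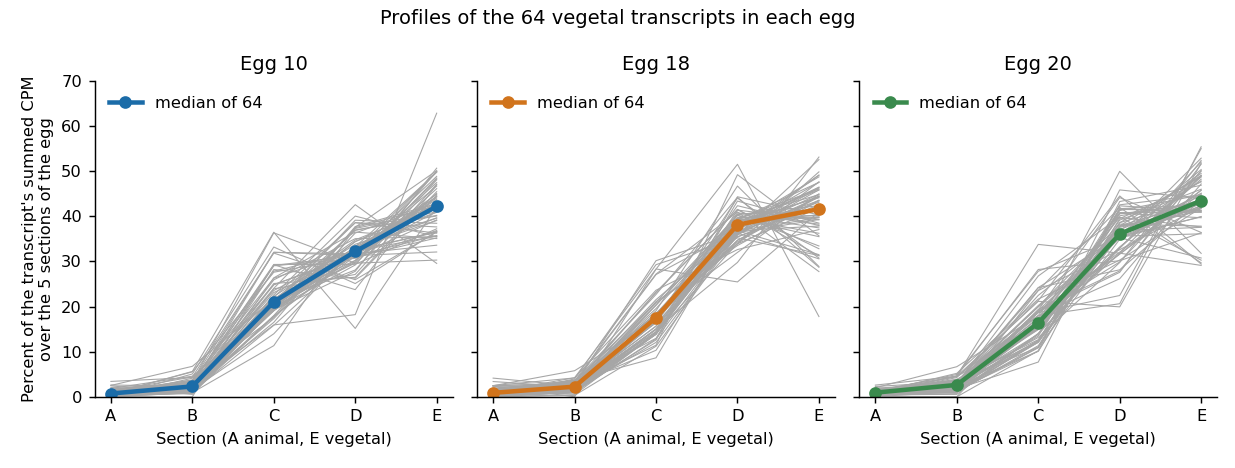
Percent of each transcript's summed CPM in sections A to E, 1 panel per egg; grey lines are the 64 transcripts and the coloured line their median. In eggs 10, 18 and 20 the median in section C was 21.1%, 17.5% and 16.4%, and in section E 42.2%, 41.6% and 43.5%.

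As a group the 64 transcripts were a small part of the RNA. From A to E they took 0.0168 ± 0.00105%, 0.0390 ± 0.00313%, 0.311 ± 0.0469%, 0.578 ± 0.0356% and 0.656 ± 0.0132% of a library's counts (SD, n = 3 eggs). Their summed level in eggs 10, 18 and 20 was 176, 163 and 161 CPM in section A and 398, 336 and 376 CPM in section B. Section C had 3655, 2914 and 2587 CPM, section D 5510, 6123 and 6148 CPM, and section E 7006, 6837 and 6936 CPM. These sums are made of the values that chose the transcripts, which puts the sum of C, D and E above that of A and B by construction. The criteria set no lower limit on C, D or E singly. The lowest egg of each section lay above the highest egg of the section before it. Without the 2 most abundant transcripts the percentages were 0.0106, 0.0269, 0.214, 0.406 and 0.471 from A to E.

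**Figure D2:**
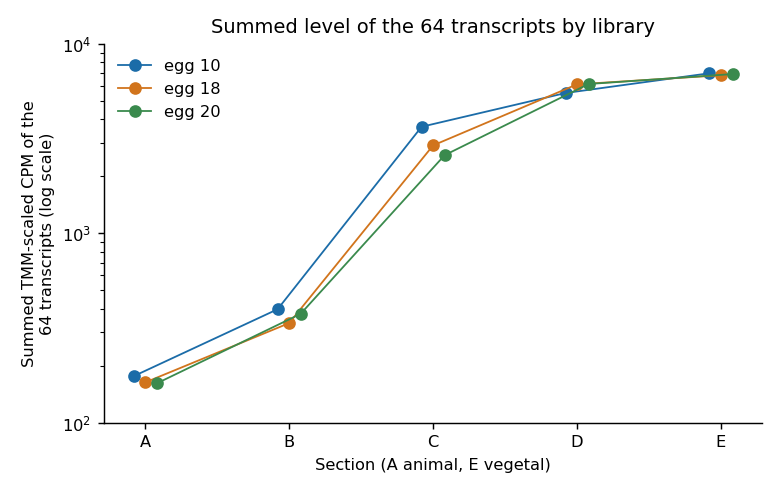
Summed TMM-scaled CPM of the 64 transcripts (log axis) by section, 1 point per library and 1 line per egg. Egg 10 was the highest in section C, at 3655 CPM against 2914 in egg 18 and 2587 in egg 20.

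The animal side was low but not empty. Together the 6 libraries of sections A and B held 6 to 3241 counts per transcript, with a median of 94.5. None of the 64 had 0 counts in all 6 libraries, and 1 had 0 counts in all 3 libraries of section A. In at least 1 library of section A 11 transcripts had 0 counts, and 3 did so in section B. In sections C, D and E the lowest count of any of the 64 in any library was 11. A count of 0 allows up to 3 counts, which is 0.266 to 0.417 CPM in the libraries of section A, a limit that covers counting error only.

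The same criteria were read in an egg that had not chosen the transcripts. With the choice made on eggs 18 and 20, 62 transcripts were taken, and 46 of them (74.2%) met both share criteria in egg 10. Among all transcripts of the same range of level 0.486% did so. With the choice on eggs 10 and 20, 49 of 65 (75.4%) met them in egg 18, against 0.399%, and with the choice on eggs 10 and 18, 40 of 72 (55.6%) met them in egg 20, against 0.299%. The limit on A plus B alone was met by 52 of the 62 in egg 10, 52 of the 65 in egg 18 and 49 of the 72 in egg 20. The median share of A plus B in the unused egg was 3.31% in egg 10, 3.16% in egg 18 and 4.23% in egg 20, and the highest was 9.52%, 9.34% and 8.67%. No transcript chosen on a pair of eggs had 10% or more of its level in sections A and B of the other egg.

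The criteria bound A plus B and E, and set no order between sections C and D. Levels in C and D still enter the sum behind each share. The shares of all tested given below are therefore not an independent contrast for the step from C to D. With TMM all 64 transcripts had a higher fitted level in D than in C (59 with the deposited factor and 50 with the spike-in as scaling), and 39 of them (60.9%) rose in the test (edgeR's quasi-likelihood test with the egg as a block, Benjamini-Hochberg adjusted p under 0.05 over all 29102 transcripts), while 0 were higher in C. Of all transcripts tested, 1.99% were called higher in D and 0.471% higher in C, and of the 17167 with a mean level from 5 to below 600 CPM, 3.15% were called higher in D. The median log2 change of the 64 was 0.92, with an interquartile range of 0.65 to 1.11, against a median of 0.00 over all tested. A rise of at least 2-fold was called for 23 of the 64 and for 0.619% of all tested. In 54 of the 64 section D was above section C in 3 of 3 eggs, against 18.2% of all tested, and in 39 the 3 libraries of D all lay above the 3 of C, against 5.87%. The count of 39 was 45 without egg 10, 18 without egg 18, 15 without egg 20 and 11 without the egg as a block. With the spike-in as scaling it was 11. The shares of all tested hold for the main fit only and were not counted in these other fits. A change particular to the 64 can therefore not be told from one common to all transcripts.

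By level, 5 of the 17 transcripts at 5 to below 10 CPM rose in D, where 1.78% of all transcripts of that level did. At 10 to below 50 CPM 20 of 31 rose, against 2.92%, at 50 to below 100 CPM 8 of 9, against 3.93%, and at 100 CPM or more 6 of 7, against 5.43%. The differences between these classes were not tested. The 25 that did not pass had log2 values of 0.21 to 1.01, and the called values began at 0.58. The median standard error of the step was 0.18 on the log2 scale.

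Transcripts of the nearest kinds showed the same direction at other sizes. Among 31 transcripts of the same range of level that met the limit on A plus B but had 50% or more in E, 25 (80.6%) rose in D relative to C and the median log2 change was 1.59. Among 350 with A plus B above 5% and up to 15% and less than 50% in E, 160 (45.7%) rose and the median was 0.71. These counts are set side by side without a test of the difference between the sets.

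**Figure D3:**
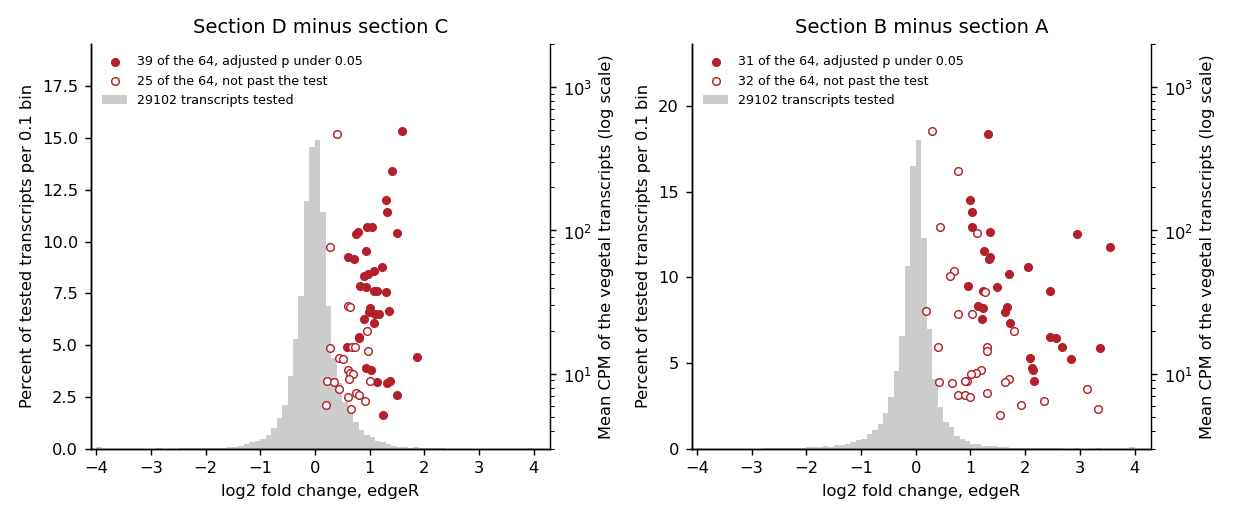
Log2 fold changes from edgeR for section D minus C (left) and B minus A (right): grey bars give the percent of 29102 tested transcripts per bin (values beyond 4 in either direction are drawn at the ends), and points give the vegetal transcripts at their mean CPM (right axis, log scale), filled where the adjusted p was under 0.05. In D minus C 39 are filled and 25 open; in B minus A 31 are filled and 32 open, and the transcript with 0 counts in section A is not drawn.

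The steepest step belonged to trinitytrinLocDN53737c0g1t2. In eggs 10, 18 and 20 it stood at 11.6, 28.3 and 40.4 CPM in section D, against 3.51, 8.83 and 8.997 CPM in section C. Section E held 15.5, 41.5 and 38.7 CPM. On the animal side it had 3, 3 and 0 counts in section B and 0 counts in each library of section A. Egg 10 was the lowest in each of C, D and E, while D lay above C in every egg. Its mean of 26.8 ± 14.5 CPM in D was 3.77-fold that of 7.11 ± 3.12 CPM in C (SD, n = 3), with a log2 change of 1.87 ± 0.21 (SE) and an edgeR adjusted p of 0.00012. The adjusted p in edgeR was 0.234 without the egg as a block.

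The second largest called step was that of trinitytrinLocDN53885c0g1t2, which was also the most abundant of the 64. It stood at 828, 921 and 921 CPM in section D of eggs 10, 18 and 20, against 348, 307 and 241 CPM in section C. The groups did not overlap: the lowest library of D was at 828 CPM and the highest of C at 348 CPM. Section E held 1241, 1251 and 1165 CPM, section B 39.2, 37.5 and 34.5 CPM and section A 36.4, 30.1 and 24.5 CPM. The log2 change from C to D was 1.59 ± 0.11 (SE), with an edgeR adjusted p of 1.13e-06. Its level kept a low tail on the animal side, and the log2 change of B against A of 0.29 ± 0.12 (SE) did not pass (edgeR adjusted p = 0.33; 0.00613 with the deposited factor as scaling).

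The second most abundant, trinitytrinLocDN54452c0g1t1, came closest in level but had another shape. Section D held 694, 947 and 973 CPM in eggs 10, 18 and 20, against 711, 698 and 547 CPM in section C. Section E held 712, 811 and 688 CPM. Egg 10 was flat from C to E, whereas eggs 18 and 20 peaked in D. The log2 change of 0.41 ± 0.12 (SE) from C to D did not pass (edgeR adjusted p = 0.102). It passed without egg 10 (0.00278), without section C or D of egg 10 (0.017 and 0.0364) and with DESeq2 (0.0422), each after Benjamini-Hochberg adjustment, and its log2 change was -0.24 with the spike-in as scaling. At the animal side it stood at 76.0, 82.2 and 76.3 CPM in section B, against 24.96, 36.0 and 33.3 CPM in section A, groups that did not overlap. That step was 2.49-fold, with a log2 change of 1.33 ± 0.13 (SE) and an edgeR adjusted p of 1.12e-05.

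The step from section A to section B, which the criteria bound only as a sum, also ran toward the vegetal side. Of the 64 transcripts, 31 (48.4%) rose in B relative to A and 0 fell (edgeR, Benjamini-Hochberg adjusted p under 0.05). Of all transcripts tested, 0.715% were called higher in B and 2.65% higher in A. Within the range from 5 to below 600 CPM, 1.12% were called higher in B. For the 63 with counts in section A the median log2 change was 1.31, from 0.19 to 3.56, against 0.00 over all tested. In 53 of the 64 section B was above section A in 3 of 3 eggs, against 15.5% of all tested, and in 42 the libraries of B all lay above those of A, against 4.58%. The count of 31 was 20 without egg 20 and 20 without the egg as a block, and the share of all tested was not counted in those fits. Levels in A and B entered the choice of the 64 through their sum, so the shares of all tested are not an independent contrast. The mean level that met the limit of 5 CPM also came mainly from sections C, D and E, since A and B were held low.

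Transcripts called in this step, 31 in number, had a median of 182 counts in sections A and B together, and the other 33 a median of 56. By level, 1 of the 17 below 10 CPM was called (0.644% of all transcripts of that level), and 19 of 31 (1.2%), 7 of 9 (1.02%) and 4 of 7 (1.77%) in the higher classes. Among those with counts in section A that did not pass, log2 values reached 3.33, for a transcript with 13 counts in section B. Among the 350 transcripts with more animal level 91 (26.0%) rose in B, and among the 31 with 50% or more in E 4 (12.9%) did. Both steps, A to B and C to D, were called for 23 of the 64 and for 0.189% of all tested, while 16 had C to D alone, 8 had A to B alone and 17 had neither.

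The largest called rise in B relative to A was found for trinitytrinLocDN50594c0g2t1. It stood at 9.13, 11.1 and 10.7 CPM in section B of eggs 10, 18 and 20, against 0.620, 1.252 and 0.816 CPM in section A, from 306 counts against 25. The groups did not overlap, and the ratio of the means was 11.5, with a log2 change of 3.56 ± 0.22 (SE) and an edgeR adjusted p of 2.21e-07. Section D held 116, 151 and 150 CPM, against 118, 126 and 100.5 CPM in section C, and these overlapped. Section E held 123, 127 and 114 CPM. The log2 change of D against C was 0.27 ± 0.11 (SE) and did not pass (edgeR adjusted p = 0.272); it was -0.12 with the deposited factor and -0.38 with the spike-in as scaling.

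A like profile at a lower level was that of trinitytrinLocGG_71398c1g1t1. Section B held 3.17, 2.79 and 2.68 CPM in eggs 10, 18 and 20, against 0.354, 0.139 and 0.272 CPM in section A, from 86 counts against 8. The ratio of the means was 11.3, with a log2 change of 3.37 ± 0.44 (SE) and an edgeR adjusted p of 0.00013. Its section C was uneven over the eggs, at 34.5, 20.7 and 13.4 CPM, while D held 28.1, 24.9 and 27.9 CPM and E 28.7, 22.1 and 18.4 CPM. Egg 10 was the highest in each of C, D and E, by the widest margin in C. The log2 change of D against C, 0.27 ± 0.18 (SE), did not pass (edgeR adjusted p = 0.598) and was -0.04 without egg 20, -0.12 with the deposited factor and -0.36 with the spike-in.

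**Figure D4:**
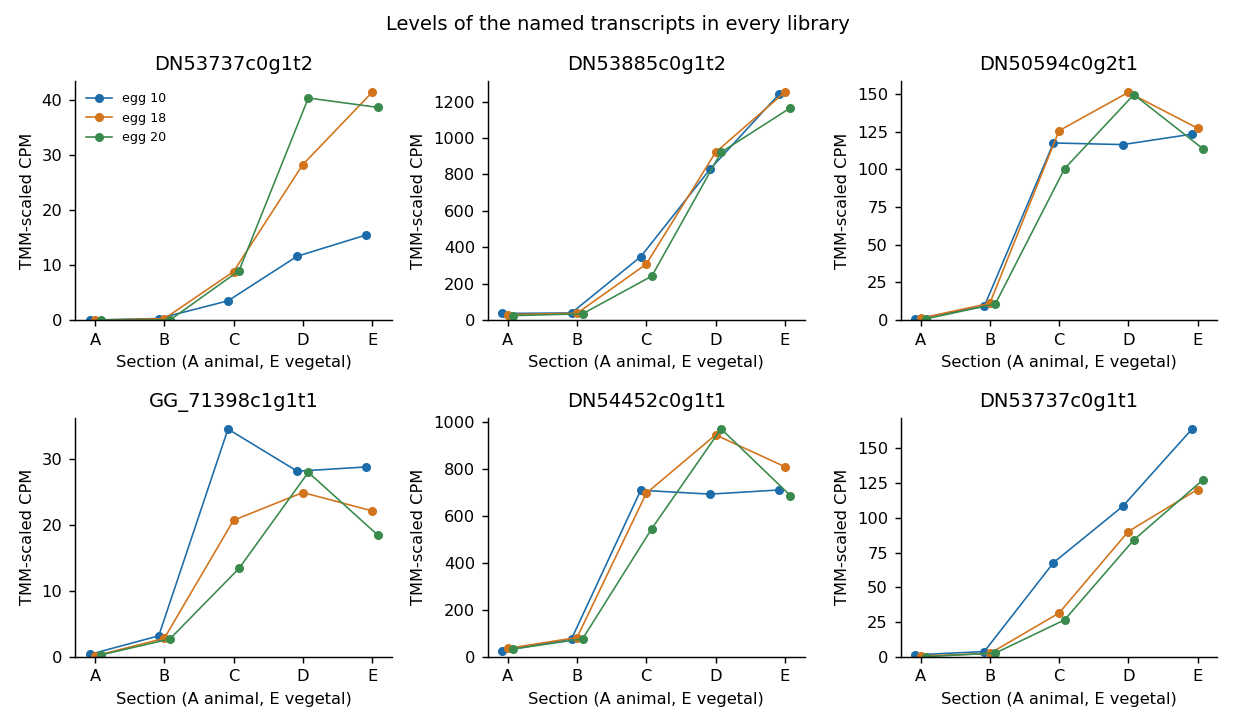
TMM-scaled CPM of the 6 named transcripts by section, 1 point per library and 1 line per egg; the vertical axes start at 0 and differ between panels. Both transcripts of DN53737c0g1 and DN53885c0g1t2 have their highest mean in section E, while DN50594c0g2t1, GG_71398c1g1t1 and DN54452c0g1t1 have theirs in section D.

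One Trinity gene, trinitytrinLocDN53737c0g1, gave a pair of the 64 transcripts, and they may share reads. trinitytrinLocDN53737c0g1t1 stood at 108, 90.2 and 84.1 CPM in section D of eggs 10, 18 and 20, against 67.7, 31.5 and 26.6 CPM in section C. Its section E held 164, 120 and 127 CPM. The 2 transcripts differed in their order of eggs: egg 10 was the highest for trinitytrinLocDN53737c0g1t1 and the lowest for trinitytrinLocDN53737c0g1t2 in each of C, D and E. The log2 change from C to D was 1.23 ± 0.18 (SE), with an edgeR adjusted p of 0.000698, which was 0.0744 without egg 18 and 0.36 without the egg as a block. From A to B it was 2.06 ± 0.44 (SE), on 87 counts in B against 21 in A, of which egg 10 held 16 (edgeR adjusted p = 0.0115). That log2 change was 3.10 without egg 10 or without section A of egg 10. The call ended without egg 18 (edgeR adjusted p = 0.143), without egg 20 (0.101), without section A of egg 20 (0.0657), without section B of egg 10 (0.052) and without the egg as a block (0.177).

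Other assembled transcripts of the same genes did not all share the profile. Of the genes and wider components that hold the 64, 17 further transcripts were listed, 5 in the same gene and 12 in the same component only. The 64 themselves are left out of these counts. Among the 64, the pair of trinitytrinLocDN53737c0g1 shares a gene, and trinitytrinLocDN51668c2g1t2 and trinitytrinLocDN51668c2g2t1 share a component. In the same gene the share of A plus B ran from 3.33 to 46.5% with a median of 16.6%, and 1 of 5 was at 5% or less. In the same component it ran from 2.21 to 62.3% with a median of 38.8%, and 1 of 12 was at 5% or less. In section D relative to C 2 of the 5 rose (edgeR, Benjamini-Hochberg adjusted p under 0.05) and 0 of the 12, where 1.99% of all tested did. The log2 change was 0.79 for a transcript at 131 CPM whose partner among the 64 stood at 37.1 CPM, and 0.83 for one at 14.3 CPM whose partner stood at 9.21 CPM. No source used here says how the authors' counting divided reads between transcripts that share sequence, and levels within a gene are uncertain.

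From section D to section E the transcripts diverged. Since the criteria bound E, the following values are a description. The ratio of E to D had a median of 1.20 and ran from 0.793 to 1.63. Section E was above section D in 3 of 3 eggs for 34 of the 64, where 18% of all tested transcripts showed this. The highest mean lay in E for 55 and in D for 9. The 9 with the highest mean in D ran from 8.76 to 474 CPM and held a median of 27.5% in section C, 36.8% in D and 32.9% in E. The 55 others held 18.2%, 34.5% and 44.0% in those sections. Of the 9, 3 rose in D relative to C, and of the 55, 36, where 1.99% of all tested did. Section D enters both the split and this step, so these counts are not an independent contrast. The highest section was E in every egg for 34 transcripts, and differed between eggs for the other 30.

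Among sections C, D and E the eggs differed most in C. The median coefficient of variation over the 3 eggs was 29.7% in C for the 64, against 19.2% in D and 20.2% in E. Over all transcripts of the same range of level it was 18.6% in C, 16.8% in D and 16.1% in E. Among the 350 with more animal level the medians from C to E were 26.8%, 17.1% and 19.1%. Among the 31 with 50% or more in E they were 34.0%, 20.9% and 31.8%. A wider spread in C than in D was therefore not limited to the 64. Members also stood lower in C than in D, and section C of egg 20 was the shallowest library, at 4347026 counts. How far counting error adds to the spread in C was not tested. Egg 10 was the highest of the eggs in section C for 48 of the 64 (75%). This held for 38.8% of all transcripts from 5 to below 600 CPM. The step from C to D was smallest in egg 10, with a median log2 difference (CPM + 0.5) of 0.60, against 1.07 in egg 18 and 1.13 in egg 20. From B to C the medians were 3.01, 2.69 and 2.52 in eggs 10, 18 and 20, and from C to E 0.95, 1.255 and 1.41. Section C was above section B in 3 of 3 eggs for all 64, and for 5873 of the 29102 tested. The same held for 346 of the 350 with more animal level and 29 of the 31 with 50% or more in E. Section B was held low by the criteria, so this count is a description. Where along the axis each cut fell was not tested.

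**Figure D5:**
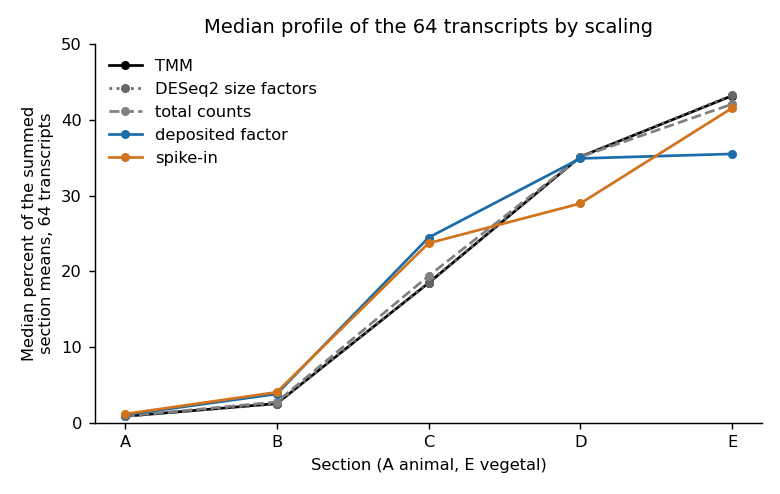
Median percent of the summed section means over the 64 transcripts in sections A to E under 5 scalings of the libraries. The deposited factor puts D and E level, at 34.9% and 35.5%, where TMM gives 35.1% and 43.2%.

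The flatness of the vegetal end depended on how libraries were scaled. With the factor by which the authors scaled their deposited signal, the median shares from A to E were 1.04%, 3.804%, 24.4%, 34.9% and 35.5%. The highest mean then lay in E for 29, in D for 30 and in C for 5, and 32 of the 64 still met the criteria. With the spike-in as scaling they were 1.16%, 4.03%, 23.7%, 28.9% and 41.5%, and 28 still met them. The largest share of A plus B among the 64 was 6.95% with the deposited factor and 7.44% with the spike-in. Both scalings shift all transcripts of a library by 1 amount. Relative to the TMM library size, the deposited factor averaged 0.936, 0.763, 0.871, 1.15 and 1.40 from A to E, and what its part per section stands for was not stated. At which step the spike-in was added was not stated either, so neither scaling is read as an amount of RNA per section. From C to D the median log2 change over all tested transcripts was -0.40 with the deposited factor and -0.65 with the spike-in. The median of the 64 lay 0.92 and 0.93 above it, against 0.92 with TMM. A shift common to all transcripts keeps that distance by construction, so its likeness between scalings is no test.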

How the data were processed

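The authors deposited, for each of 15 libraries, a table of whole-number counts per assembled transcript and a table of normalized signal, the counts divided by 1 number per library (called the deposited factor). Tools named by the submitters' processing notes, with no role, are STAR 2.5.2b, Trimmomatic, kallisto and DESeq2; no source used here names the assembly. The spike-in line, 0.0115 to 0.0235% of the counts, stayed out of library sizes and tests. Sequences were not analysed here.

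Shares used CPM with TMM over all listed transcripts. Transcripts were filtered with filterByExpr and tested across all transcripts with edgeR 4.0.16 (glmQLFit, glmQLFTest, Benjamini-Hochberg) in R 4.3.3, with section and egg as additive terms over 15 libraries, and DESeq2 1.42.0 as an alternative. The scripts were tested on simulated data. Segments of 1 egg are paired by the label's egg number: deviations from section means correlated at 0.293 to 0.867 within eggs and -0.760 to 0.393 between eggs. In each section the deviations of the eggs cancel out, which lowers the values between eggs by construction. As a check for a library deposited again under another label, chi-square over degrees of freedom between libraries of 1 section was 4.77 to 27.2. Directions within eggs used log2 of CPM plus 0.5.

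The members, lists and tests were chosen with earlier results of these data known. Among the 64, the named transcripts are the 2 with the largest called fold per direction of D against C and of B against A in 3 of 3 eggs, the 2 most abundant, and the gene with 2 members; the rule also covered transcripts with 0 counts in A and B, of which there were 0. A standard error is the log2 change over the square root of the F statistic.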

Additional observations from a re-analysis of the deposited data

Results flagged for a closer look

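One measure was not tested itself and entered the comparisons only as an alternative scaling. The spike-in line held at least 693 counts in every library, where a count of 0 allows up to 3. From A to E it stood at 139 ± 25.2, 119 ± 10.5, 147 ± 19.1, 229 ± 21.4 and 200.04 ± 36.5 TMM-scaled CPM (SD, n = 3). Its mean was higher in D and E, where the 64 transcripts were high too. The line stayed out of library sizes and did not enter their TMM-scaled levels. Whether the rise of the line and that of the 64 are related was not tested. At which step the spike-in was added was not stated, so scaling by it is given only as an alternative. Groups of 3 eggs were not examined for outlying samples.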

How the results depend on the processing

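The number of transcripts that met the criteria was 61 to 64 with total counts or DESeq2 size factors and 62 to 72 on leaving out an egg. Scaled by the deposited factor it was 41, by the spike-in 28, and it was 28 with A plus B at most 3% and 226 at most 10%. The share meeting both criteria in an unused egg was 88.7% for egg 10, 95.4% for egg 18 and 84.7% for egg 20 when A plus B could reach 10% there. Among all transcripts of the same range of level 1.55%, 1.23% and 1.12% met this looser limit in those eggs. Leaving out an egg or a library gave 15 to 45 of the 64 called from C to D and 20 to 29 from A to B, none of them in the other direction. The count from C to D was 45 without egg 10, 18 without egg 18 and 15 without egg 20, with fewer libraries in each fit. The cause of these differences was not tested, and the share of all transcripts called was not counted in any of the alternative fits. Without the egg as a block the counts were 11 from C to D and 20 from A to B; with the spike-in 11 rose from C to D. Both low-count filters, DESeq2's test and size factors, total counts, the deposited factor and the restriction to transcripts alone in their gene kept both counts within 1.5 times. For the named transcripts 187 alternative values were computed, of which 168 had the same direction and call, 8 lost the call, 5 gained it and 6 changed sign, each of these without a call in either fit. The 6 were log2 changes of D against C: with the deposited factor -0.12 for trinitytrinLocDN50594c0g2t1 and -0.12 for trinitytrinLocGG_71398c1g1t1, with the spike-in -0.38, -0.36 and, for trinitytrinLocDN54452c0g1t1, -0.24, and -0.0402 for trinitytrinLocGG_71398c1g1t1 without egg 20 (range over left-out eggs and libraries -0.0402 to 0.62). In the 6 libraries of A and B a median of 94.5 counts per transcript, low by the choice of the transcripts, limits the comparison of B with A.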

Other observations

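IDs of the GG form, which the Trinity assembler gives to genome-guided transcripts, made up 27 of the 64 (42.2%). They were 17 of the 31 transcripts with 50% or more in section E (54.8%), 42.3% of the 350 with more animal level and 27.3% of all 17167 transcripts with a mean level from 5 to below 600 CPM. Of the 42878 listed transcripts 34.6% had this form. These are descriptions of the ID classes with no test.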
